A study of Mus musculus with 31 samples.

Results

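Transcripts of DNA replication and of the entry into S phase (G1/S) were followed in the mouse T cell clone D10.G4.1, which belongs to the type 2 helper (Th2) lineage. The cells had been given the neuropeptide neuromedin U (NmU) or, as control, phosphate-buffered saline (PBS). The group was defined by gene symbol: 38 genes were listed, and every probe set that the array's annotation pairs with exactly 1 of these symbols was taken. This gave 49 probe sets for 36 of the 38 genes, out of 12422 probe sets for 8251 named genes on the array; Tyms and Pole had no probe set of their own symbol alone. Of the 36 genes, 34 passed the filter on dim probe sets and were tested, and each is given here by its brightest probe set. The remaining 2, the helicase subunit Mcm6 and the cyclin Ccne2, had mean signals of 6.84 and 13.9 over the arrays, under the limit of 20.2, and have no fold change.

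Cells were sampled at 0.8, 3, 6 and 12 h with either agent, and total RNA of each of the 31 samples was hybridised to an array of its own. Each of the 8 groups held 4 arrays, except NmU at 3 h with 3. All groups are of the same clone, and the dose of NmU is not given in the sources used here. The labels do not say whether the replicates came from separate cultures, so the p-values below reflect only how these samples varied, and part or all of that variation may be technical.

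A chromosome can start replication only at origins that were licensed in G1, when the origin recognition complex, Cdc6 and Cdt1 load the ring-shaped MCM helicase onto DNA; geminin blocks reloading later in the cycle. In S phase Cdc7 and Cdk2 fire the origins, Cdc45 activates the helicase, primase and DNA polymerase alpha lay down primers, and polymerases delta and epsilon extend them with the sliding clamp Pcna and its loader, replication factor C. Many of these genes are targets of the E2F transcription factors, which the retinoblastoma family of proteins holds in check until G1 cyclin kinases act. In T cells the same machinery is switched on when a resting cell enters the cycle.

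Signals are probe set intensities on a linear scale, scaled by the authors, and compare 1 probe set between arrays but not different probe sets with each other. The median signal of an array lay between 34.4 and 43.3, and arrays of a group correlated at 0.951 to 0.982 over the tested probe sets. D10.G4.1 cells carried several T cell transcripts: Cd3d had a median signal of 1437, Cd3e of 805, Cd4 of 283 and Gata3, the Th2 factor, of 2204. Cd2, of the same list, was dim at a median of 20. Thy1 lay at or under the floor of 5.8 on 20 of 31 arrays. Of the markers of other blood cells, Itgam was at or under that floor on 31 arrays, Lyz2 on 28, and Adgre1, Cd8a and Ncr1 on 26 each, but other markers of the same lists were above it on all 31, among them the macrophage and dendritic cell markers Itgax and Cd14 at median signals of 100.5 and 70.9, the B cell markers Cd79a and Ms4a1 at 61.1 and 41.7, the natural killer marker Klrk1 at 44.3, and Epor and Elane at 102.7 and 43.1. An array of a whole culture cannot tell fewer cells in S phase from less RNA of these genes per cell.

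Before any comparison, 1 control array stood apart. On PBS 3 h replicate 4, 33 of the 34 tested members lay above the mean of the 3 other PBS 3 h arrays, by a median of 0.43 on the log2 scale, and for 28 of them it was the highest array of the group; over all 5905 tested genes 47.1% lay above. The 31 tested genes of mitosis and G2/M behaved alike on it, with 27 above and a median of 0.53. This array raises the control level at 3 h, so the called members, the counts and the medians at 3 h are given with and without it, and the plot of fold changes by gene shows both values for all 34 members. NmU 6 h replicate 4 was treated in the same way: 25 of 34 members lay above the mean of its 3 companions, by a median of 0.08, against 57.2% of all tested genes. PBS 0.8 h replicate 1 was high for 28 members (median 0.27) and PBS 3 h replicate 2 was above its companions for 6 (median -0.26). In the treated group of 3 arrays, NmU 3 h replicate 1 lay above the mean of the 2 others for 32 members. The median difference was 0.19, and over all tested genes 48.3% lay above. This replicate was the highest for 26 members. Without it 11 members were called at 3 h at a median of -0.44. The share of all tested genes called in that fit is not given. Which property of these samples or arrays moved the members together was not tested.

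The question for each time was whether the members' signals differed between NmU and PBS. Differences are log2 fold changes, NmU minus PBS, with their standard error (SE) and a p-value from limma adjusted over all 7930 tested probe sets by the Benjamini-Hochberg method; a member is called, or said to have fallen, at an adjusted p under 0.05. At 0.8 h no tested member was called (0 of 34, also 0 at an unadjusted p under 0.05; 0.0677% of all tested genes were called lower and 0.898% higher). The median fold change of the members was -0.02, against -0.03 for all tested genes, and 19 of 34 lay below 0 (59.4% of all tested genes). No member had its NmU arrays all below its PBS arrays, against 2.27% of all tested genes. The sign at 0.8 h depended on the scaling, for the members as for all tested genes. After scaling to a common array median the members' median was 0.06, that of all tested genes 0.05, and 10 members lay below 0.

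At 3 h 12 of the 34 tested members fell and 0 rose, where 6.49% of all tested genes were called lower and 4.47% higher. They were Mcm3, Mcm7, Cdc6, Gmnn, Pola2, Pold1, Rfc1, Rfc2, Rpa1, Tk1, Mybl2 and Uhrf1. The members' median fold change was -0.38, against -0.04 for all tested genes, and all 34 had a fold change below 0 (55.6% of all tested genes), or 33 with either other scaling. Without PBS 3 h replicate 4 the median was -0.29, 30 lay below 0 and 8 members fell, all of them among the 12, while 7.35% of all tested genes were called lower; Mcm7, Cdc6, Mybl2 and Uhrf1 were no longer called. For 13 members every NmU 3 h array lay below every PBS 3 h array, with or without that replicate; the share over all tested genes was 11.9% with it and 19% without it. With only the 7 arrays of the 3 h groups in the model, 0 members were called (lowest adjusted p = 0.0958, Tk1), and 61 probe sets in all were called lower in place of 454. Scaling the arrays to a common median left 3 members called, Tk1, Rfc1 and Rfc2, at a median of -0.35. Without NmU 3 h replicate 2 or replicate 3, 5 and 7 members were called. Shares of all tested genes are not given for the common median or for these replicates.

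At 6 h 2 of 34 tested members fell, Mcm7 and Pola1, and 0 rose, where 2.37% of all tested genes were called lower and 2.96% higher. The median of the members was -0.16 (all tested genes 0.01), and 30 of 34 lay below 0 (48.3% of all tested genes). In 11 members the NmU arrays all lay below the PBS arrays, against 6.25% of all tested genes. Without NmU 6 h replicate 4 the median was -0.20 and 13 members did not overlap (10% of all tested genes). In that fit Pola1 alone was called, and 2.81% of all tested genes were called lower. Without PBS 3 h replicate 4, which enters the 6 h comparison only through the shared estimate of the spread, 6 members were called at 6 h. The share of all tested genes called lower was then 3.18%. Leaving out any other array of the 6 h groups except NmU 6 h replicate 2 also left 1 member called, and with only the 8 arrays of these groups in the model 0 were (adjusted p = 0.0686 for Pola1 and 0.0769 for Mcm7). At 12 h 0 members were called (8 at an unadjusted p under 0.05, of which 7 lower; 0.457% of all tested genes were called lower and 0.948% higher), with a median of -0.17, 29 of 34 below 0 (53.6% of all tested genes) and 8 that did not overlap (4.13% of all tested genes).

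**Figure D1:**
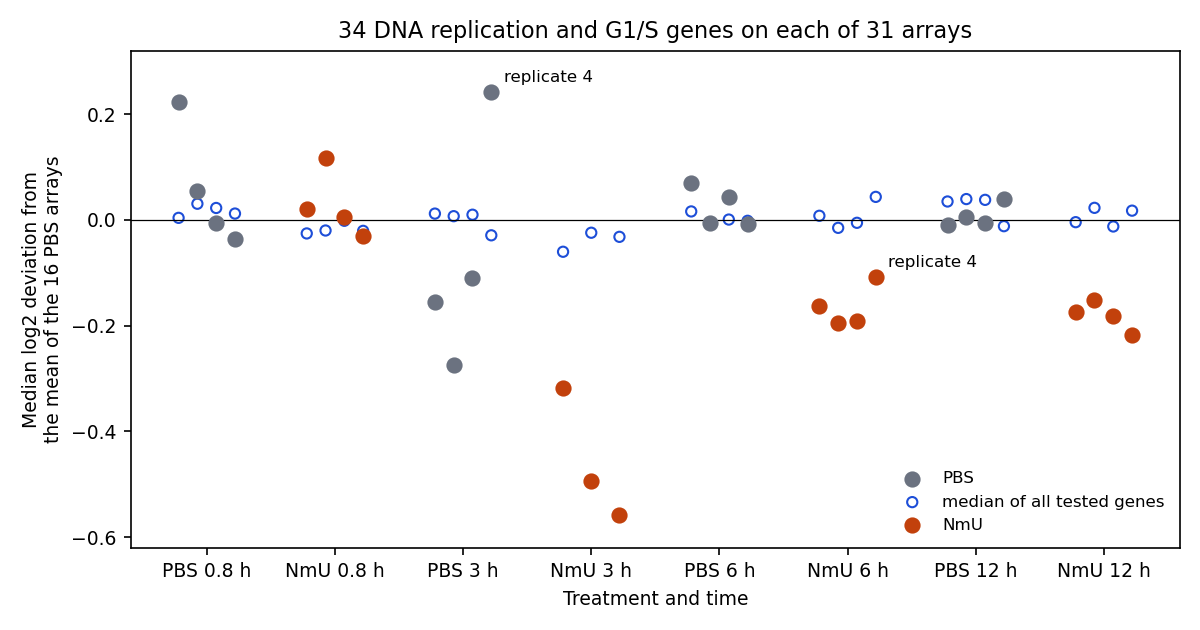
Each filled point is 1 array, placed at the median over the 34 tested members of the log2 deviation from the mean of the 16 PBS arrays (vertical axis), by treatment and time (horizontal axis), with grey for PBS and orange for NmU; open circles are the same median over all tested genes. The NmU 3 h arrays lie at -0.32, -0.49 and -0.56, below all PBS 3 h arrays, of which replicate 4 lies at 0.24 and the other 3 at -0.15, -0.27 and -0.11.

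On each array the members can be read together through their median deviation from the mean of the 16 PBS arrays. The 4 NmU 12 h arrays lay at -0.17, -0.15, -0.18 and -0.22, below the PBS 12 h arrays at -0.01 to 0.04. The 4 NmU 6 h arrays lay at -0.16, -0.19, -0.19 and -0.11, below the PBS 6 h arrays at -0.01 to 0.07. At 0.8 h the NmU arrays, at -0.03 to 0.12, overlapped with the PBS arrays, at -0.04 to 0.22. At 3, 6 and 12 h the treated arrays were therefore the lower ones in every case, while the same median over all tested genes stayed between -0.06 and 0.04 on all 31 arrays.

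Since many of these genes are described as E2F targets, their promoters are shown for what they share in sequence. The windows are from RefSeq on GRCm38.p6, from 250 bases before to 50 bases after each annotated start, and the table held them for 32 of the 38 listed genes. The E2F words searched were TTTCGCGC, TTTGGCGC, TTTCCCGC and TTTGCCGC on both strands, some of which can overlap as 1 longer element. At least 1 word was present in 12 of the 32 genes, or 37.5%, against 2.6% of the 27025 genes of the table. Among the members called at 3 or 6 h it was in 6 of 11 (54.5%), and among the tested members called at neither time in 5 of 19 (26.3%). The difference between these shares was not tested, and the split depends on single arrays. Without PBS 3 h replicate 4, Uhrf1, which holds a word, was called at neither time. Mcm7 and Cdc6, which also hold one, were then called only at 6 h. The mitosis and G2/M genes held it in 2 of 31 (6.45%). CCAAT was in 65.6% of the members, 41.1% of all genes and 80.6% of the mitosis and G2/M genes, and the GC box GGGCGG in 78.1%, 38.2% and 77.4%. The word TTTGAA, the core of the CHR element of mitotic genes, was in 18.8% of members, 20.2% of all genes and 71% of the mitosis and G2/M genes. These are matches of letters; binding was not measured here.

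An E2F word lay before the start in 4 called members. For these, and for comparison for Mcm5 and Orc1, which were not called at any single time, the word is printed in capitals. It has 8 bases on each side, 5′ to 3′ on the gene's strand.
Mcm7, chr5:138172033-138172056, - strand: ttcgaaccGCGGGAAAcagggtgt
Cdc6, chr11:98908005-98908028, + strand: ggtggagaGCGGGAAAtcgcctgg
Pola1, chrX:93632278-93632301, - strand: atcacaggGCGCCAAAtgcactcc
Uhrf1, chr17:56304120-56304143, + strand: gagtcgggTTTCGCGCgcccaggc
Mcm5, chr8:75109348-75109371, + strand: ccaagaacTTTCGCGCcaaaacgt
Orc1, chr4:108579419-108579442, + strand: ggttagtgGCGCGAAAagttttct
The first base of the word lies 165 bases before the start in Mcm7, 138 in Cdc6 and in Pola1, 185 in Uhrf1, 153 in Mcm5 and 27 in Orc1. The word of Uhrf1 is in its second annotated window. In Mcm5, which was not called at 3 h at a fold change of -0.43, a further word overlaps the one shown.

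The 250 bases before the start are shown whole for Mcm7 and Pola1, the members called at 6 h, with E2F words in capitals, and for Tk1, the member with the lowest p at 3 h, whose window held none of these words and so prints in lower case.
Mcm7, chr5:138171884-138172133, - strand: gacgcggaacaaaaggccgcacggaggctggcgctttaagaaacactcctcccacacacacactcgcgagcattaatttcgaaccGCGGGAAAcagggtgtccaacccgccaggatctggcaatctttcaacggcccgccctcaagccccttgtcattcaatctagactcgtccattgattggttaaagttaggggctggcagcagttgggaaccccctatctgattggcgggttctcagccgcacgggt
Pola1, chrX:93632156-93632405, - strand: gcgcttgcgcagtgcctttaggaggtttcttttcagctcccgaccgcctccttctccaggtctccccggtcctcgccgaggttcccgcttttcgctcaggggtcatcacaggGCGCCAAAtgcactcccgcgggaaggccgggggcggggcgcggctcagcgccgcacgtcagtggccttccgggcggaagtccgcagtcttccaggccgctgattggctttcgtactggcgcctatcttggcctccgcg
Tk1, chr11:117826015-117826264, - strand: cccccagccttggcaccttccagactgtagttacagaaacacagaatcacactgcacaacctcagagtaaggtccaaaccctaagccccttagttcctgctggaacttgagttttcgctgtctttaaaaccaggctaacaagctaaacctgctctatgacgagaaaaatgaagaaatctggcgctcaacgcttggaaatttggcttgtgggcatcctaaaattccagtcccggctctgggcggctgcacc

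The MCM helicase was measured through 5 of its 6 subunits, and 2 of the 5 fell at 3 h. Mcm3 signals at 3 h, in order of replicate number, were 1029, 921, 1055 and 1325 in PBS and 875, 803 and 725 in NmU. Every NmU array lay below every PBS array, and PBS replicate 4 was the highest. The fold change was -0.43 (SE 0.11, adjusted p = 0.00822), or -0.32 (adjusted p = 0.0299) without PBS 3 h replicate 4. At 0.8 h Mcm3 lay at 1182 ± 130 (SD, n = 4) in PBS and 1134 ± 40.8 (SD, n = 4) in NmU. The 12 h arrays of the 2 treatments overlapped. A further, dimmer probe set of Mcm3 differed by -0.26 at 3 h (adjusted p = 0.293), or -0.10 without PBS 3 h replicate 4.

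Mcm7 was the 1 member called at both 3 and 6 h. Its 3 h signals were 869, 604, 802 and 891 in PBS and 657, 576 and 589.7 in NmU, with PBS replicate 2 inside the NmU range. At 6 h they were 906, 844, 866 and 842 in PBS and 636, 734, 669 and 657 in NmU, with no overlap. The 12 h signals were 759.8, 736, 831 and 938 in PBS and 721, 643, 694 and 596 in NmU, again with no overlap. The fold changes were -0.37 (SE 0.11, adjusted p = 0.0308) at 3 h, -0.36 (SE 0.10, adjusted p = 0.0364) at 6 h and -0.30 (SE 0.10, adjusted p = 0.206) at 12 h, the last not called. Without PBS 3 h replicate 4 the 3 h value was -0.30 (adjusted p = 0.0826), and without NmU 6 h replicate 4 the 6 h value was -0.35 (adjusted p = 0.0711); neither was called. Mcm5 stood at -0.43, -0.41 and -0.38 at 3, 6 and 12 h and was called at none of them (3 h adjusted p = 0.0762). Mcm2 and Mcm4 differed at 3 h by -0.27 (95% interval -0.58 to 0.05) and -0.24 (-0.45 to -0.02). Without PBS 3 h replicate 4 they stood at -0.10 (adjusted p = 0.708) and -0.16 (adjusted p = 0.344), and Mcm5 at -0.29 (adjusted p = 0.224). All 5 subunits had fold changes below 0 at 3, 6 and 12 h, with medians of -0.37, -0.31 and -0.30.

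Of the 6 genes of origin licensing and firing, Cdc6 and Gmnn fell at 3 h. Cdc6, the loader of the helicase, had 3 h signals of 587, 494, 563 and 796 in PBS and 491, 389.9 and 443 in NmU. Its 6 h signals were 711, 756, 736 and 718 in PBS and 593, 627, 590 and 557 in NmU, and its 12 h signals 686, 666, 732 and 707 in PBS and 548, 571, 576 and 522 in NmU. At 3, 6 and 12 h no NmU array of Cdc6 reached the lowest PBS array of that time. The fold change was -0.45 (SE 0.12, adjusted p = 0.0150) at 3 h, -0.30 (SE 0.11, adjusted p = 0.125) at 6 h and -0.33 (SE 0.11, adjusted p = 0.191) at 12 h, the lowest adjusted p among the members at 12 h. Without PBS 3 h replicate 4 the 3 h fold change was -0.31 (adjusted p = 0.0517), just past the threshold.

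Gmnn encodes geminin, the inhibitor of licensing, so the loader and the inhibitor fell at the same time. Its 3 h signals were 121, 136, 145 and 201 in PBS and 99.7, 87.7 and 95.3 in NmU, a 1.57-fold lower geometric mean in NmU. Its groups did not overlap at 3 h and did so at the other 3 times. The fold change was -0.65 (SE 0.16, adjusted p = 0.00940), and -0.50 (adjusted p = 0.0370) without PBS 3 h replicate 4. At 6 and 12 h it was -0.19 and -0.24, not called. The origin recognition subunits Orc1 and Orc2 differed at 3 h by -0.44 (95% interval -0.82 to -0.06) and -0.23 (-0.63 to 0.17). Their values without PBS 3 h replicate 4 were -0.35 (adjusted p = 0.270) and -0.28 (adjusted p = 0.436). Cdc45 differed by -0.16, and the origin-firing kinase Cdc7 by -0.18 at 3 h and 0.36 at 12 h, the highest value of any member at that time. None of these 4 was called at any time.

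Of 6 genes of the polymerases and primase, Pola2 and Pold1 fell at 3 h and Pola1 at 6 h. Pola1, the catalytic subunit of polymerase alpha, had 6 h signals of 225, 209, 262 and 203 in PBS and 155, 124, 142 and 177 in NmU. No NmU array reached the lowest PBS array. Its 3 h signals were 199.6, 183, 211 and 228 in PBS and 181, 158 and 146 in NmU, which did not overlap either but differed less. The fold change was -0.34 (SE 0.13, adjusted p = 0.104) at 3 h and -0.59 (SE 0.12, adjusted p = 0.00402) at 6 h, where the geometric mean was 1.51-fold lower in NmU. Without NmU 6 h replicate 4 the 6 h value was -0.67 (adjusted p = 0.00167). At 12 h the signals were 232, 197, 227 and 249.6 in PBS and 234, 200.4, 189.5 and 173 in NmU and overlapped. In the contrast of the effect at 6 h with that at 3 h no tested member was called (0 of 34; 5 at an unadjusted p under 0.05, lowest adjusted p = 0.244, Rfc1; 0.322% of all tested genes were called lower and 0.474% higher).

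Pola2, the regulatory subunit of polymerase alpha, had 3 h signals of 259, 309, 319.5 and 299.7 in PBS and 236, 215 and 216 in NmU. Here PBS replicate 4 was not the highest array. The fold change of -0.41 (SE 0.11, adjusted p = 0.0191) was accordingly -0.41 (adjusted p = 0.0323) without it. Pold1, the catalytic subunit of polymerase delta, had 3 h signals of 336, 293, 313 and 414 in PBS and 268, 226 and 226 in NmU and 6 h signals of 405, 341, 373 and 370.2 in PBS and 278, 324, 297 and 340.3 in NmU, with no overlap at either time. Its fold change was -0.49 (SE 0.12, adjusted p = 0.00554) at 3 h, -0.39 (adjusted p = 0.0212) without PBS 3 h replicate 4, and -0.27 (SE 0.11, adjusted p = 0.173) at 6 h. The accessory subunit Pold2 differed by -0.11 at 3 h (95% interval -0.36 to 0.15). Both primase subunits, Prim1 and Prim2, had 3 h values of -0.45 and -0.42 with wide errors (SE 0.18 and 0.23) and were not called. Their values without PBS 3 h replicate 4 were -0.30 and -0.27.

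**Figure D2:**
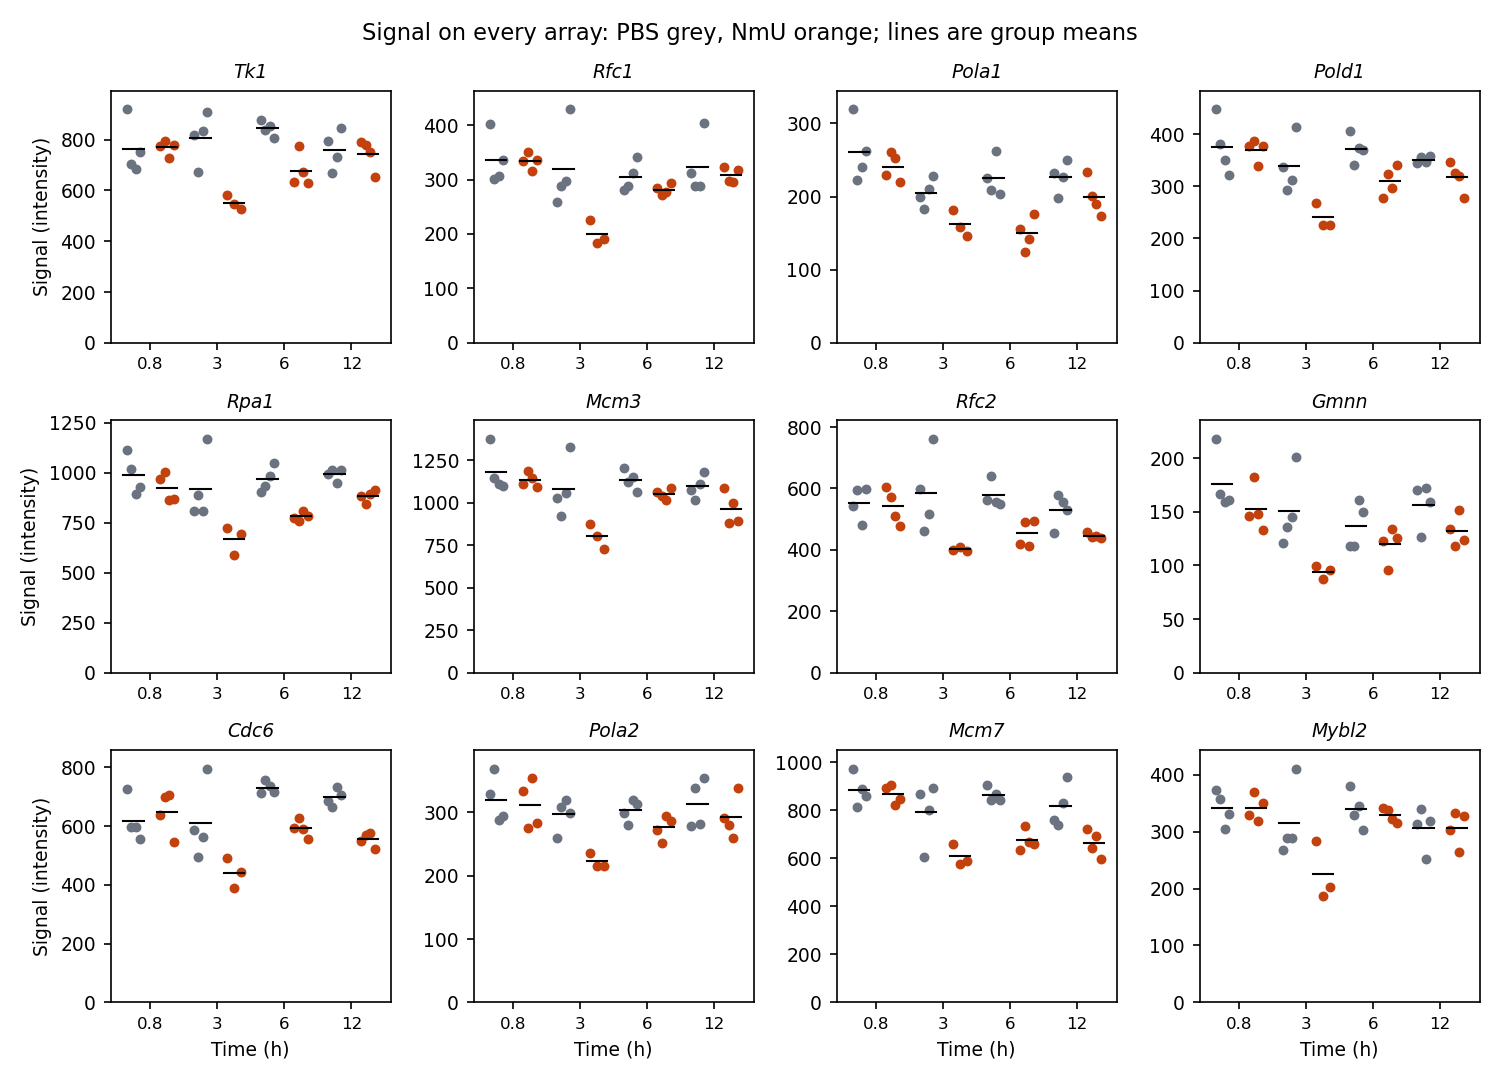
Signal intensity (vertical axes, linear and starting at 0) on each array against time in hours (horizontal axes) for the 12 called members with the lowest p, with PBS in grey, NmU in orange and lines at the group means of 3 or 4 arrays. At 3 h the NmU arrays form the lowest group of each panel except Pola1, whose lowest group is NmU at 6 h, and the highest PBS 3 h point is replicate 4 in 11 of the 12 panels, all but Pola2.

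At the fork, Rfc1, Rfc2 and Rpa1 fell at 3 h among 7 genes of the clamp, its loader, single-strand binding and strand joining. Rfc1, the large subunit of the clamp loader, had 3 h signals of 258, 289, 298 and 429 in PBS and 225, 183 and 192 in NmU. The NmU arrays all lay below the PBS arrays. The log2 fold change of Rfc1 was -0.65 (SE 0.14, adjusted p = 0.00191), a 1.57-fold lower geometric mean, and -0.50 (adjusted p = 0.00600) without PBS 3 h replicate 4. Its second probe set differed by -0.88 (adjusted p = 0.00474), or -0.78 (adjusted p = 0.0166) without that array. At 6 h the Rfc1 signals, 282, 288, 311 and 341 in PBS and 285, 271, 278 and 293 in NmU, overlapped, and the fold change was -0.11 (95% interval -0.37 to 0.15).

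Rfc2, a small subunit of the loader, had 3 h signals of 598, 460.5, 515 and 762 in PBS and 401, 409 and 397 in NmU. The 3 NmU arrays were close together, with an SD of 5.82 against 131 in PBS. The fold change was -0.51 (SE 0.13, adjusted p = 0.00867), -0.37 (adjusted p = 0.0313) without PBS 3 h replicate 4, and -0.35 (SE 0.12, adjusted p = 0.0904) at 6 h, where the groups did not overlap. Rpa1, the large subunit of the single-strand binding protein, had 3 h signals of 806, 890.1, 807 and 1169 in PBS and 722, 589.7 and 694 in NmU, 6 h signals of 905, 934, 985 and 1047 in PBS and 771, 759.9, 809 and 784 in NmU and 12 h signals of 994, 1013, 949.5 and 1014 in PBS and 883, 845, 894 and 915 in NmU. The NmU arrays of Rpa1 lay below the PBS arrays at all 3 of these times. Its fold change was -0.45 (SE 0.11, adjusted p = 0.00620) at 3 h, -0.31 at 6 h (adjusted p = 0.0722) and -0.17 at 12 h (adjusted p = 0.561); without PBS 3 h replicate 4 the 3 h value was -0.32 (adjusted p = 0.0199).

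The clamp itself, Pcna, differed by -0.07 at 3 h (95% interval -0.29 to 0.15) and by -0.03 at 6 h (-0.24 to 0.17). Its 3 h signals were 2110.5, 2358, 2199 and 3039 in PBS and 2570.4, 2187 and 2132 in NmU. They overlapped, and without PBS 3 h replicate 4 the fold change was 0.04. Rpa2 stood at -0.39, the flap nuclease Fen1 at -0.37 (adjusted p = 0.0584) and the ligase Lig1 at -0.28 at 3 h. With PBS 3 h replicate 4 left out they stood at -0.24 (adjusted p = 0.484), -0.27 (adjusted p = 0.170) and -0.11 (adjusted p = 0.765). Fen1 was not called, though its 3 h groups did not overlap. Lig1 had its lowest value, -0.42, at 12 h (95% interval -0.78 to -0.06, adjusted p = 0.348).

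Among the 3 tested genes of nucleotide supply, Tk1, the thymidine kinase of the salvage pathway, fell at 3 h. Its signals at 0.8 h were 920, 702, 685 and 753 in PBS and 775, 795, 729 and 777 in NmU. At 3 h they were 819.8, 673, 832 and 908 in PBS and 581, 545 and 526 in NmU, and at 6 h 879, 839, 852 and 806 in PBS and 633, 774, 672 and 628 in NmU. At 12 h they were 793, 670.2, 730.5 and 848 in PBS and 793, 778, 749.8 and 653 in NmU. The treatments thus overlapped at 0.8 and 12 h and were apart at 3 and 6 h. Tk1 fell by 0.55 at 3 h (SE 0.11, limma adjusted p = 0.00127), 1.46-fold in geometric mean, and the value without PBS 3 h replicate 4 was -0.49 (adjusted p = 0.00500). At 6 h it was -0.32 (SE 0.10, adjusted p = 0.0643) and at 12 h -0.03 (95% interval -0.24 to 0.18). Averaged with its second, very dim probe set, Tk1 was not called (-0.42, adjusted p = 0.402).

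The 2 ribonucleotide reductase subunits were not called at any time. Rrm1, the large subunit, stood at -0.37, -0.46 and -0.29 at 3, 6 and 12 h (adjusted p = 0.202, 0.116 and 0.537). Its 3 h value was -0.21 without PBS 3 h replicate 4. Rrm2, the subunit whose supply follows the cell cycle, stood at -0.11 and -0.07 at 3 and 6 h and at -0.32 at 12 h. Its 3 h value was 0.03 without PBS 3 h replicate 4. At 12 h its signals were 1059, 1109, 1132 and 1058 in PBS and 832, 923, 895 and 832 in NmU, with no overlap (adjusted p = 0.215).

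Of the 4 tested G1/S regulators, Mybl2, an E2F target that encodes the transcription factor B-Myb, fell at 3 h. Its 3 h signals were 268, 289.5, 288 and 411 in PBS and 284, 187 and 203 in NmU. NmU replicate 1 lay inside the PBS range, and PBS replicate 4 stood far above its companions. The fold change was -0.49 (SE 0.14, adjusted p = 0.0242), and -0.35 (adjusted p = 0.0838) without PBS 3 h replicate 4, not called; a dimmer probe set differed by -0.08. E2f1 differed by -0.28 at 3 h (adjusted p = 0.335) by its brighter probe set, while the dimmer one fell by 0.58 (adjusted p = 0.0423), a call lost without PBS 3 h replicate 4 (-0.43, adjusted p = 0.127). At 6 h E2f1 stood at 0.22, the highest value of any member then. The kinase Cdk2 and its partner cyclin Ccne1 differed by -0.05 (95% interval -0.33 to 0.22) and 0.00 (-0.44 to 0.44) at 3 h. A dimmer probe set of Cdk2 went the other way, at 0.96 (adjusted p = 0.258), or 0.96 (adjusted p = 0.296) without PBS 3 h replicate 4. Cdk2 stood at -0.36 (SE 0.12, adjusted p = 0.0963) at 6 h, where its signals, 210.4, 175, 196 and 197 in PBS and 163, 136, 154 and 155 in NmU, did not overlap.

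Chromatin and DNA methylation factors of the fork were close to each other at 3 h, and 1 of 3 was called. Uhrf1, which brings the maintenance methyltransferase Dnmt1 to new DNA, lay at 311 ± 111 (SD, n = 4) in PBS and 209 ± 25.9 (SD, n = 3) in NmU at 3 h. Its ranges, 221 to 460.1 and 179.8 to 229.7, overlapped, and its fold change was -0.52 (SE 0.17, adjusted p = 0.0457). Without PBS 3 h replicate 4 it was -0.31 (adjusted p = 0.149), and the call was lost in 27 of the 44 alternative fits, the most of any call. Dnmt1 had 3 h signals of 952, 736, 769.7 and 918 in PBS and 720.1, 619 and 598 in NmU, without overlap, and a fold change of -0.38 (SE 0.13, adjusted p = 0.0607), or -0.34 (adjusted p = 0.119) without PBS 3 h replicate 4. Chaf1a, the large subunit of the chromatin assembly factor, had -0.32 (SE 0.13, adjusted p = 0.103), or -0.25 (adjusted p = 0.232) without that array, also without overlap and not called.

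**Figure D3:**
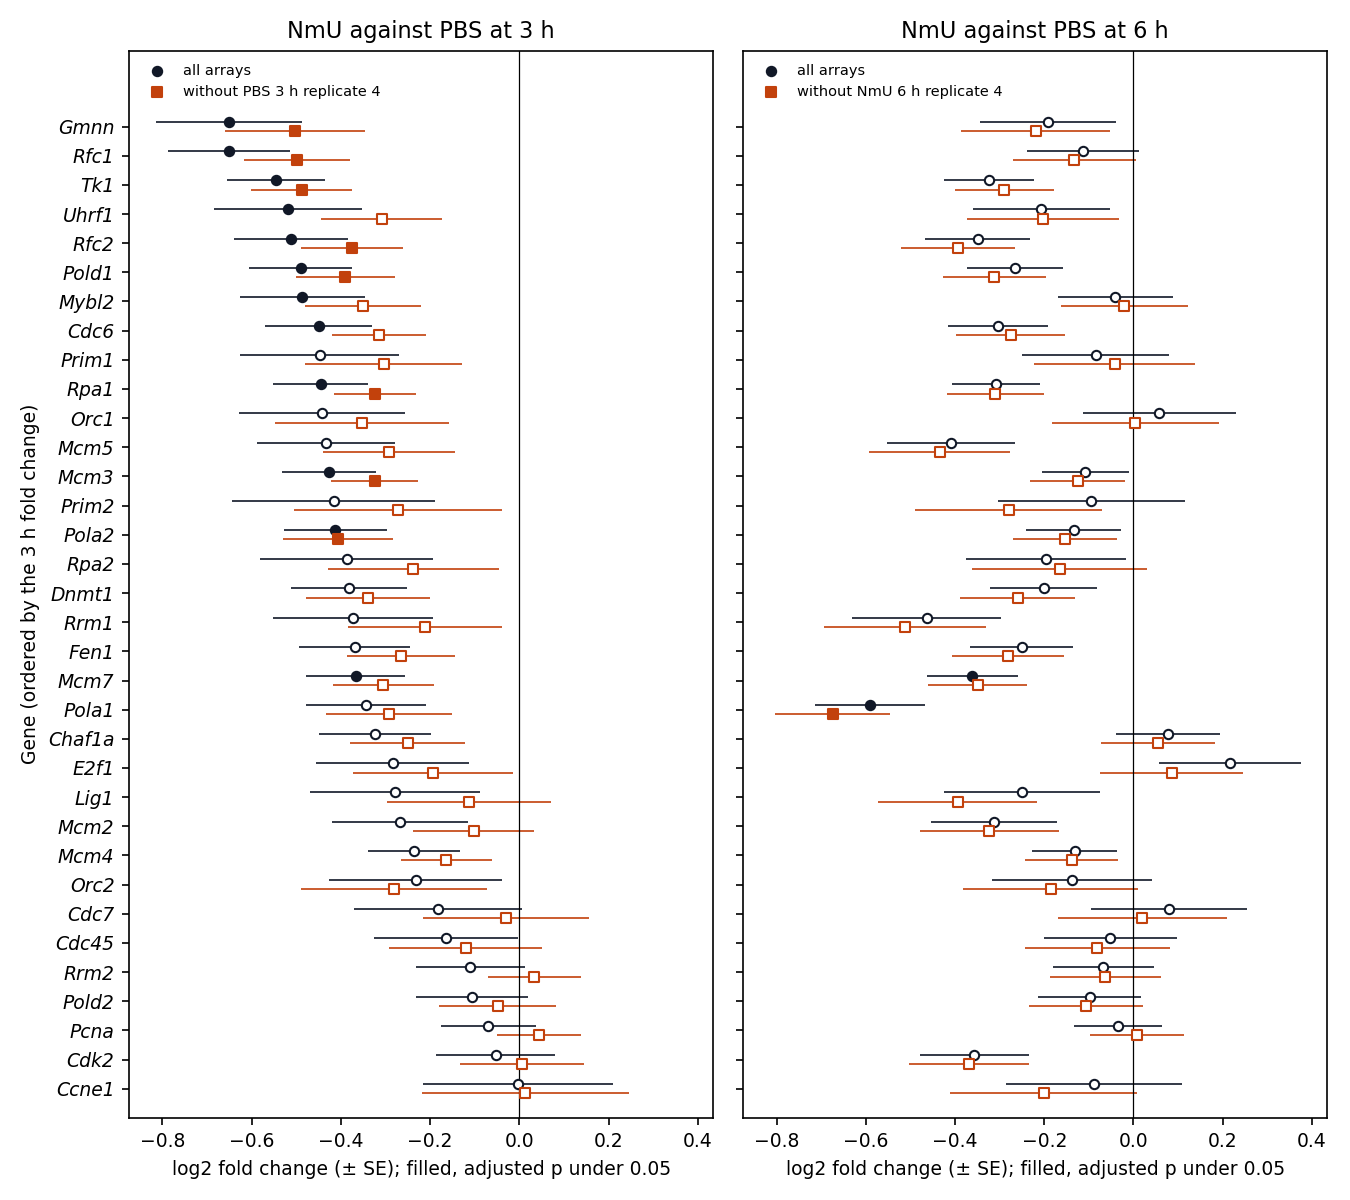
Log2 fold change of NmU against PBS (horizontal axes, bars are ± SE) for the 34 tested members (vertical axis, ordered by the 3 h value), at 3 h on the left and at 6 h on the right. Black circles use all 31 arrays, orange squares leave out PBS 3 h replicate 4 (left) or NmU 6 h replicate 4 (right), and filled symbols have an adjusted p under 0.05: 12 black and 8 orange at 3 h, 2 black and 1 orange at 6 h.

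Over the 7 functional groups the 3 h medians ran from -0.41 for the polymerases and primase to -0.17 for the G1/S regulators. The clamp and loader group stood at -0.39, the chromatin group at -0.38, nucleotide supply at -0.37, the helicase at -0.37 and licensing at -0.34. Leaving out PBS 3 h replicate 4 gave medians from -0.31 for the chromatin group to -0.09 for the regulators, with nucleotide supply at -0.21, the clamp and loader group at -0.27, the helicase at -0.29 and licensing and the polymerases at -0.30 each. At 6 h the helicase (-0.31) and nucleotide supply (-0.32) were the lowest, and the regulators (-0.06) and licensing (-0.09) the nearest to 0. At 12 h the helicase and nucleotide supply stood at -0.30 and -0.29, and the other groups between -0.27 and -0.12. These medians rest on 3 to 7 genes each, and differences between the groups were not tested.

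**Figure D4:**
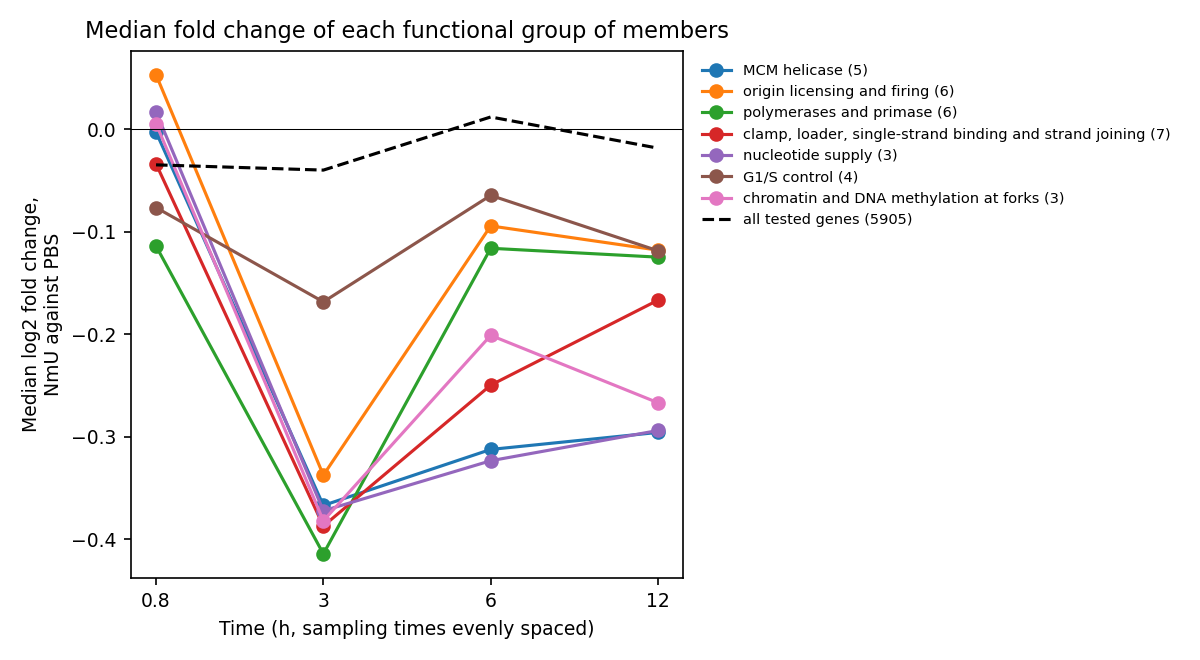
Median log2 fold change of NmU against PBS (vertical axis) at the 4 sampling times in hours (horizontal axis, evenly spaced), for the 7 functional groups of members with the number of tested genes in brackets; the dashed line is the median of all 5905 tested genes. With all arrays every group is at its lowest at 3 h, from -0.41 to -0.17; without PBS 3 h replicate 4 this holds for 4 of the 7 but not for the helicase, nucleotide supply and the regulators, and the dashed line stays between -0.04 and 0.01.

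Whether the effect of NmU differed between times was tested in its own right. An F test over all times called 11 of 34 members as changed at any time (12.7% of all tested genes). Without PBS 3 h replicate 4, Mcm3 (adjusted p = 0.0532) and Gmnn (adjusted p = 0.0551) were no longer called by this F test. Without NmU 3 h replicate 2 or 3 the counts were 7 and 6. Shares of all tested genes are not given for these fits. The 11 included Mcm5 (adjusted p = 0.0243), which was called at no single time. The F test of a difference in effect between times called 0 (5 at an unadjusted p under 0.05; lowest adjusted p = 0.0554, Tk1), where 4.4% of all tested genes were called. In the single contrast of the effect at 3 h against that at 0.8 h, Tk1 was called (adjusted p = 0.0320; fold change 0.02 at 0.8 h and -0.55 at 3 h), and 2.13% of all tested genes were called in that direction. For the return of Tk1 from 3 to 12 h the adjusted p was 0.0627. For the other members a difference in effect between times was tested as well and was not called. Their time course is therefore given as a sequence of values, each with its own test.

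The control arrays alone were compared across time as well, since the members could move in culture without NmU. In PBS 0 of 34 were called for a change over time (2 at an unadjusted p under 0.05; 0.0169% of all tested genes were called). From 0.8 to 3 h in PBS 29 of 34 lay lower, with a median of -0.13 (all tested genes -0.03). Without PBS 3 h replicate 4 the median was -0.24, 30 lay lower and 0 were called, with 15 at an unadjusted p under 0.05 (lowest adjusted p = 0.0558; all tested genes had a median of -0.01). From 0.8 to 6 and 12 h in PBS the medians were -0.03 and -0.07. The 3 other PBS 3 h arrays thus had low values of the members themselves, and the NmU arrays of that time lay lower still. The 0.8 h reference of these comparisons includes PBS 0.8 h replicate 1, which was high for 28 of the 34 members (median 0.27).

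Genes around the members were counted in lists of the same pathway. Over all tested genes, 6.49% were called lower and 4.47% higher at 3 h, and 2.37% lower at 6 h. Without PBS 3 h replicate 4, 7.35% were called lower at 3 h, and the share called higher in that fit is not given. Differences of the lists from these shares were not tested. Among 22 further tested genes of the replication machinery 5 fell and 0 rose at 3 h, 2 without PBS 3 h replicate 4; the median was -0.23, or -0.22 without it. They included Mcm10, which helps to activate the helicase, at -0.56 (adjusted p = 0.0158), Topbp1, a scaffold of origin firing, at -0.47 (adjusted p = 0.0113), and Rnaseh2a, which removes RNA from DNA, at -0.52 (adjusted p = 0.00622). Mcm10 was no longer called without PBS 3 h replicate 4 (adjusted p = 0.0592), while Topbp1 and Rnaseh2a were. At 6 h 3 fell, Pole4, Rpa3 and the topoisomerase Top2a, at -0.35 (adjusted p = 0.00856), -0.36 (adjusted p = 0.0138) and -0.46 (adjusted p = 0.0200). Of 14 further genes of nucleotide supply 2 fell at 3 h, Dck at -0.41 (adjusted p = 0.0112) and Dut, which keeps uracil out of DNA, at -1.18 (adjusted p = 0.0320); the list's median was -0.06, or 0.06 without PBS 3 h replicate 4, when 1 gene rose and Dut was no longer called (adjusted p = 0.0567). Of 13 genes of S-phase chromatin 3 fell and 0 rose, and the same number fell without that array, when 1 rose. Slbp, which binds the stem-loop of histone mRNAs, was at -0.60 (adjusted p = 1.11e-05), Asf1b at -0.46 (adjusted p = 0.00517) and Chaf1b at -0.51 (adjusted p = 0.0146).

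Of 19 tested genes of the E2F, RB and G1 cyclin list 6 fell and 2 rose at 3 h (6.49% and 4.47% of all tested genes), and the counts, though not every gene, were the same without PBS 3 h replicate 4. Rbl1, which encodes the pocket protein p107 and is itself an E2F target, was lowest at -1.10 (adjusted p = 1.69e-09), and was still called at 6 h, -0.32 (adjusted p = 0.0143), and at 12 h, -0.34 (adjusted p = 0.0265). Cdkn2c, an inhibitor of the cyclin D kinases, stood at -0.94 (adjusted p = 6.44e-06), cyclin A2 (Ccna2) at -0.45 (adjusted p = 0.00659) and cyclin D3 (Ccnd3) at -0.67 (adjusted p = 0.000463). In the other direction cyclin D2 (Ccnd2) rose by 1.02 at 3 h (adjusted p = 8.47e-05) and by 0.69 at 6 h (adjusted p = 0.00589), and E2f5 rose by 0.42 at 3 h (adjusted p = 0.0356), a call not kept without PBS 3 h replicate 4 (adjusted p = 0.0507). PBS 3 h replicate 4 lay above its companions for 10 of these 19 genes, with a median difference of 0.00; for the members the count was 33 of 34.

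Of 15 checkpoint and repair genes 4 fell at 3 h, 3 without PBS 3 h replicate 4, with a median of -0.38, or -0.21 without that array. Among them, Brca1 stood at -1.13 (adjusted p = 5.50e-05) and the checkpoint kinase Chek1 at -0.53 (adjusted p = 0.00437). Over all tested genes, 6.49% were called lower at 3 h, or 7.35% without PBS 3 h replicate 4. The mitosis and G2/M list, the closest neighbour of the members in the cell cycle, had 12 of 31 lower at 3 h and 0 higher, 8 without PBS 3 h replicate 4, with a median of -0.35, or -0.21 without that array. At 6 h 6 of the 31 fell, against 2 of the 34 members; the median was -0.25, against -0.16 (2.37% of all tested genes fell). These counts depended on single arrays. They were 7 and 6 without PBS 3 h replicate 4 (3.18% of all tested genes fell). Without NmU 6 h replicate 4 they were 9 and 1 (2.81%). Aurkb, the kinase of the chromosomal passenger complex, stood at -0.82 (adjusted p = 0.000153) at 3 h and -0.45 (adjusted p = 0.0356) at 6 h, and Aurka and Plk1 at -0.75 (adjusted p = 5.50e-05) and -0.67 (adjusted p = 0.000137) at 3 h. Members and mitotic genes were thus lower at the same time and by similar medians. They share the same arrays, including PBS 3 h replicate 4, and no test of a difference between the lists was made.

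Markers of other cell types gave these values beside the members' fall at 3 h. The summed signal of the 7 B cell markers on the array was 155 to 217 in PBS and 174 to 191 in NmU at 3 h, and that of the 10 macrophage and dendritic cell markers 252 to 280 and 245 to 327. Of these 2 lists, 0 of 11 tested genes were called at 3 h, and 0 of the 5 tested genes of the natural killer and CD8 and the granulocyte and erythroid lists. At 6 h Cd68 (0.54, adjusted p = 0.0370) and Mpo (0.86, adjusted p = 0.00484) were called higher, and at 12 h Cd68 (0.61, adjusted p = 0.0457). The sum of the 11 T cell markers was 6851 to 8200 in PBS and 9894 to 11852 in NmU at 3 h. Of its 10 tested genes 3 rose at 3 h, Il4, Il5 and Gata3, where 4.47% of all tested genes were called higher. Il4 stood at 2.70 (limma adjusted p = 5.01e-15), so the sum includes the rise of this gene. The part of these markers in the members' fold changes was not tested.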

How the data were processed

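The deposited table holds probe set intensities of 31 single-colour arrays on a linear scale; from the values, the authors had scaled them to a common trimmed mean of about 150.1. Neither the scanner nor the summary of probes is stated in the labels. No further normalisation was made. Intensities under 5.8, the 20th percentile, were set to this floor before log2 was taken, which understates changes of dim transcripts. Probe sets with a mean log2 above the 40th percentile (a signal of 20.2) in at least 1 group were kept: 7930 probe sets for 5905 genes, after 66 controls were left out of 12488. Probe sets were named through GEO's annotation (10833 with 1 symbol, 396 with several, 1193 with none); Entrez numbers matched a RefSeq table (GRCm38.p6) for 10817 and changed 0 symbols.

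A linear model with 8 group means over all 31 arrays was fitted with limma 3.58.1 in R 4.3.3, with two-sided p-values. It had 23 residual and 2.72 prior degrees of freedom. The fit was checked on simulated data in which each probe set varied on its own. That check does not cover arrays on which many genes shift together. A gene is given by its brightest probe set. Values on every array are given for called members, at most 12, those with the lowest p first, and for others named after their values were seen. From each pathway list up to 6 called genes with the lowest p were named. Members, lists and alternatives were chosen with earlier results of these data known. Same-numbered replicates were not treated as pairs. The number of arrays limits the precision. Figures were drawn with matplotlib 3.10.9.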

Additional observations from a re-analysis of the deposited data

Results flagged for a closer look

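Among the 12 members with values on every array, 84 groups of 4 arrays were screened for an array far from the others by Dixon's ratio, which chance passes in about 1 of 20 groups, and 3 passed. Rfc2 on PBS 6 h replicate 2 had a signal of 641.9, with the next array at 562.5. Gmnn on PBS 0.8 h replicate 1 had 218.1, with the next at 166.9. Mybl2 on PBS 3 h replicate 4 had 410.6, with the next at 289.5.

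By the limma F test of a difference in the effect of NmU between times 0 of 34 members passed, where 4.4% of all tested genes did. In the single contrast of the effect at 3 h with that at 0.8 h, 1 of 34 members passed, Tk1 (adjusted p = 0.0320), where 2.13% of all tested genes did in that direction; 5 of 31 genes of the mitosis and G2/M list and 4 of 19 of the E2F, RB and G1 cyclin list passed the same contrast. Of the genes named from the neighbouring lists 9 passed the F test, with an adjusted p of 3.28e-05 for Rbl1, 0.00489 for Slbp, 0.00773 for Cdkn2c, 0.0135 for Brca1, 0.0158 for Aurka, 0.0190 for Ccnd2, 0.0251 for Pole4, 0.0443 for Prc1 and 0.0468 for Incenp.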

How the results depend on the processing

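Over 44 alternative fits no call of a member at a single time changed direction. Many of these fits, such as those without an array of another time, left the fold change as it was. In those the direction could not change. The count of 12 members called at 3 h was 3 with arrays scaled to a common median, 6 with the replicate number as a block and 0 with only the 2 groups compared. The count of 2 at 6 h was 4 with the filter at the 60th percentile, 1 with the common median, 4 with the replicate block, 8 with array weights, 4 with trend and robust moderation and 0 with only the 2 groups. The count of 11 at any time was 4 with the common median, 7 with the replicate block and 7 with the mean over probe sets. For a difference between times, with 0 members called, the count was 1 without the filter, 1 with the 60th percentile filter, 3 with array weights and 1 with trend and robust moderation. Leaving out single arrays gave 5 to 15 at 3 h (5 and 7 without NmU 3 h replicates 2 and 3), 1 to 6 at 6 h, 6 to 13 at any time and 0 to 2 between times (2 without PBS 12 h replicate 4), and 0 at 0.8 h, at 12 h and for time in PBS. The causes were not tested. For most of these fits the share of all tested genes called is not given. The counts alone therefore do not separate a change in the members from one in all genes. Rfc1 at 3 h and Pola1 at 6 h each lost their call in 1 of the 44 fits, that with only the 2 groups, Mcm7 in 9 at 3 h and 11 at 6 h, and Uhrf1 in 27.

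The replicate numbers were not taken to pair the samples, since the labels give no shared source and not every pair correlated above 0.1: same-numbered arrays of a time had correlations of deviations from -0.22 to 0.20, over 0.1 in 5 of 15 pairs. Of 30 arrays 15 correlated best with their own number among 3 or 4 candidates each, among them all 4 PBS arrays at 0.8 h, a hint of pairing from the data and not the design. PBS 3 h replicate 4 has no NmU partner and drops out of the blocked 3 h comparison by construction. Time in PBS could not be fitted with the block. Signal over background limits Mcm6 and Ccne2, which stayed under the filter.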
